A study of Mus musculus with 6 samples.

Results

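The clustered protocadherins are cell-surface adhesion proteins whose genes lie side by side in 3 clusters, alpha, beta and gamma, on mouse chromosome 18. They were chosen by gene symbol: every alpha, beta and gamma cluster name with its number or C-type letter, 1 row per Ensembl ID. This gave 56 of the 22584 IDs in the table. They comprised 12 alpha alternate genes, 2 alpha C-type genes, 22 beta genes, 11 gamma A genes, 6 gamma B genes and 3 gamma C-type genes.

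RNA was taken from the brain of wild-type mice, either with the AllPrep DNA/RNA/Protein kit, which also recovers protein for other assays (3 libraries), or with TRIzol reagent as the control method (3 libraries). Both groups share genotype and tissue, and the labels give no strain, age, sex or brain region. All libraries were amplified by in vitro transcription with T7 polymerase and sequenced as paired reads of 150 bases. Whether the 3 libraries of a method stem from different animals is not given, so every p-value here refers to the variation among these 6 libraries, part or all of which may be technical.

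Each alternate gene of the alpha and gamma clusters carries its own promoter and a variable exon for the extracellular and membrane-spanning parts, and this exon is spliced to constant exons that the whole cluster shares. Beta genes have no constant exons. A neuron switches on a small, largely random set of alternate promoters with the help of CTCF and cohesin, while C-type genes are expressed more uniformly. The proteins bind like to like between membranes, and in mice they serve the self-avoidance of dendrites and axons and the survival of neurons.

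Because of the constant exons, the counts of alpha and gamma genes depend on how reads in shared sequence were assigned, and this is not given in the sources used here. In the vM21 annotation, 52.3% to 97.2% of all 150-base windows of an alpha alternate transcript also lie in a transcript of another gene. For the gamma A and gamma B genes this share was 43.0% to 69.6%. Among the beta genes, 17 of 22 had no shared window, and the highest share was 61.6%, for Pcdhb12. Values of single alpha and gamma genes, and of Pcdhb12, are therefore uncertain.

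Total counts ran between 38552252 and 50937858 in AllPrep libraries and between 36395330 and 44995120 in TRIzol libraries. The protocadherins took 28636, 26215 and 35848 of these counts in AllPrep replicates 1, 2 and 3, and 15078, 21933 and 23425 counts in TRIzol replicates 1, 2 and 3. One library stood apart for these genes: TRIzol replicate 1 was the lowest of the 6 for 43 of the 54 members tested, against 21.8% of all tested genes. The marker lists also differed between methods. All 10 choroid plexus markers were called higher in AllPrep, with summed levels of 625 to 1261 CPM (counts scaled to the column total of each library, as counts per 1000000) in AllPrep and 19.5 to 28.4 CPM in TRIzol, and none was at 0 in any library. Of 6 ependymal markers 3 were called higher, and of 7 tested hypothalamic markers 3, while none of the 9 neuronal markers passed the test. Over all tested genes 2.52% were called higher. Neuronal marker sums overlapped, at 8342 to 8852 CPM in AllPrep and 8444 to 9368 CPM in TRIzol. Single neuronal markers went both ways, with 4 positive and 5 negative log2 fold changes, from -0.39 to 0.63. Oligodendrocyte markers summed to 3189 to 5618 CPM in AllPrep and 6022 to 7081 CPM in TRIzol, with none of the 7 called. The 4 oligodendrocyte precursor markers had a median log2 fold change of 0.39, with sums of 149 to 176 CPM in AllPrep and 108 to 132 CPM in TRIzol, and none was called. The 7 striatal markers had a median of 0.97, with overlapping sums of 351 to 1061 CPM in AllPrep and 153 to 671 CPM in TRIzol, and none was called. The part of these markers in the protocadherin values was not tested.

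As a whole, the protocadherins summed to more of the AllPrep libraries than of the TRIzol libraries. Their summed level was 651, 680 and 704 CPM in AllPrep replicates 1, 2 and 3, against 414, 569 and 521 CPM in the TRIzol replicates. The 2 groups of libraries did not overlap. The mean was 678 ± 26.4 CPM in AllPrep and 501 ± 79.2 CPM in TRIzol (SD, n = 3 each), a ratio of 1.35. In tissue RNA, fewer cells of a type and less RNA per cell cannot be told apart.

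**Figure D1:**
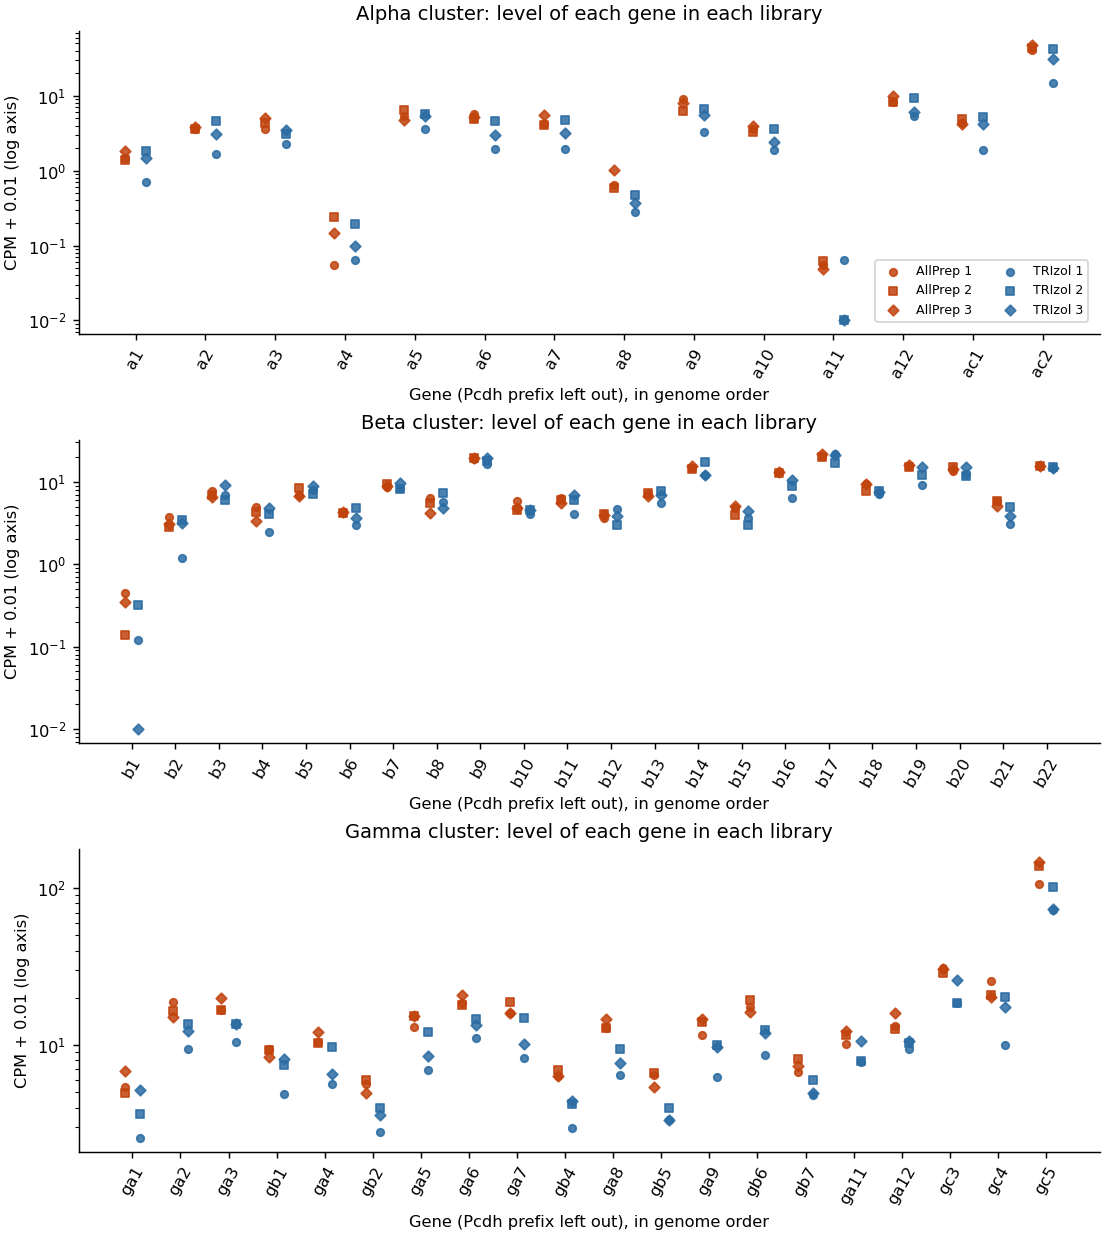
Level of each of the 56 genes in each library, as CPM + 0.01 on a log axis, with the 3 AllPrep libraries in orange left of the 3 TRIzol libraries in blue, and circle, square and diamond for replicates 1, 2 and 3. A value of 0 stands at 0.01, Pcdhgc5 is the highest gene, and the blue circles of TRIzol replicate 1 are the lowest points for 43 of the 54 tested genes.

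The C-type genes, which lie closest to the constant exons, included the 3 members most abundant per kilobase of unshared exon. With the longest annotated transcript as length, the beta gene Pcdhb9 took the place of Pcdhgc3 among these 3. Levels between genes were compared as CPM per kilobase of exon that no other annotated gene shares, averaged over all 6 libraries. The median was 14.0 CPM per kilobase for gamma C-type genes and 6.86 for alpha C-type genes. It was 5.47 for gamma A, 2.33 for gamma B, 1.76 for beta and 1.41 for alpha alternate genes. The alpha C-type median lies between 2 genes far apart, Pcdhac1 at 1.60 and Pcdhac2 at 12.1. Pcdhac1 was thus below the beta median. These medians depend on the length used. With the longest annotated transcript as length they were 5.46 for gamma C-type, 3.49 for alpha C-type and 2.38 for gamma A genes. They were 1.23 for gamma B and 0.66 for alpha alternate genes, which puts beta genes, at 1.67 with that length, above gamma B. In alpha and gamma genes that length also counts sequence shared with other genes, whereas 17 of 22 beta genes had no shared window.

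Pcdhgc5, which binds a subunit of the GABA-A receptor in rat neurons, had the highest level per length of all 56 genes, at 23.2 CPM per kilobase. Pcdhgc3 followed with 14.0 and Pcdhac2 with 12.1 CPM per kilobase. The Pcdhgc3 value rests on 1821 unshared bases and was 7.57 CPM per kilobase when bases shared only with genes on the other strand were kept (a length chosen after seeing the data), which puts it below Pcdhac2. With the longest annotated transcript Pcdhgc3 had 5.46 CPM per kilobase, below Pcdhac2 at 6.24 and Pcdhb9 at 6.05. By unshared exon, Pcdhgc4 had 5.48 and Pcdhac1 had 1.60 CPM per kilobase.

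Among the alternate and beta genes, the ranges of level per length in the alpha and beta clusters were widened by their lowest tested genes, Pcdha8 and Pcdhb1. Pcdha12 was the highest tested alpha alternate at 4.08 CPM per kilobase, 18.3 times the level of Pcdha8 at 0.222. The next lowest tested alpha alternate, Pcdha1, had 0.581. In the beta cluster, Pcdhb9 had 6.05 CPM per kilobase, 71.3 times the level of Pcdhb1 at 0.0848. Pcdhb1 had 0 to 19 counts per library, and the next lowest beta gene, Pcdhb2, had 1.02 CPM per kilobase. The highest and lowest of all 17 gamma alternates differed by 7.62 times. The highest and lowest gamma A genes differed by 4.80 times, with Pcdhga11 at 8.01 CPM per kilobase, and the gamma B genes by 5.33 times, with Pcdhgb6 at 5.61. The Pcdhga11 value rests on 1256 unshared bases and was 3.82 CPM per kilobase with bases unshared on the same strand and 2.12 with the longest transcript. With either length it lay below Pcdhga6, at 6.16 with bases unshared on the same strand and 3.40 with the longest transcript. In the gamma groups no gene lay as far below the others as Pcdha8 and Pcdhb1 did in theirs.

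Level per length was also set against position in the cluster. Across the 10 tested alpha alternate genes, level per length against genome order had Pearson's r of 0.54 and Spearman's rho of 0.39. Across the 22 beta genes these were 0.29 and 0.39, and across the 17 gamma alternates 0.06 and -0.02. Genes of a library share its depth and are not independent, so these values are descriptions.

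Both of the genes too low to test lie in the alpha cluster. Pcdha4 had 2, 9 and 7 counts in AllPrep and 2, 7 and 4 counts in TRIzol. Pcdha11 had 2 counts in each AllPrep library, against 2, 0 and 0 counts in TRIzol. They also have the largest shares of shared windows of all members, 97.2% for Pcdha4 and 96.2% for Pcdha11. How far the shared windows bear on these low counts was not tested.

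**Figure D2:**
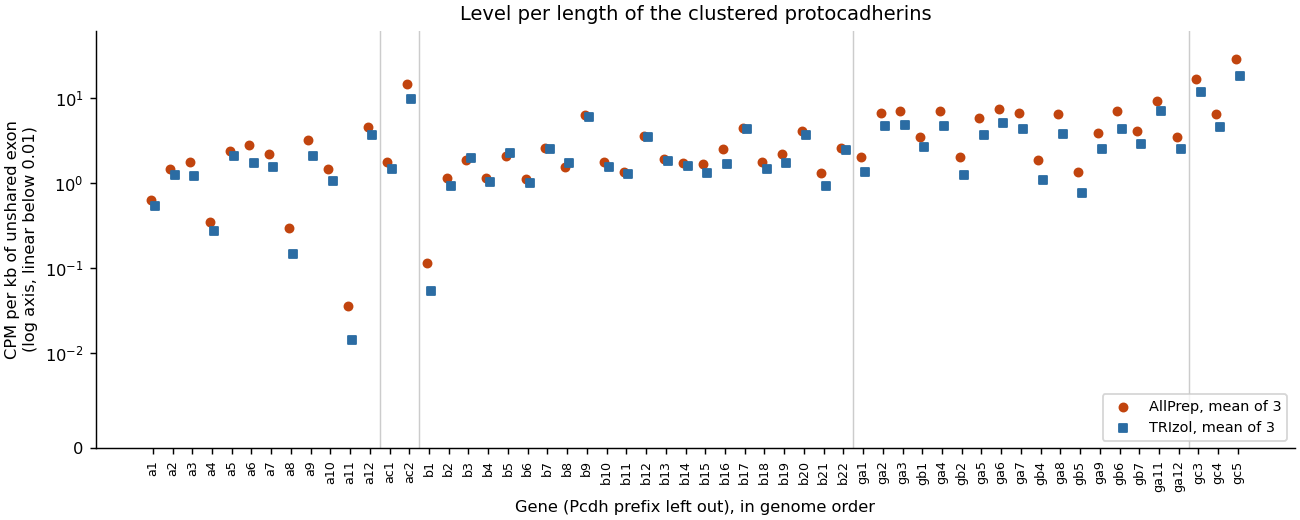
Mean CPM per kilobase of unshared exon of each gene in genome order, AllPrep in orange and TRIzol in blue (mean of 3 libraries each), on an axis that is logarithmic above 0.01; gray lines part the alpha alternate, alpha C-type, beta, gamma alternate and gamma C-type genes. Pcdhgc5 is highest and Pcdha11 lowest, and the lowest beta gene, Pcdhb1, also lies below every gamma alternate.

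Between the methods, gamma cluster genes gave every call. Of 54 tested members 4 were called higher in AllPrep and 0 lower (edgeR quasi-likelihood test, Benjamini-Hochberg adjusted p below 0.05 over 16325 genes): Pcdhgb5, Pcdhga8, Pcdhga6 and Pcdhgb6. Over all tested genes 3.8% were called, 2.52% higher and 1.28% lower. None of the 12 tested alpha genes and none of the 22 beta genes was called. At an unadjusted p below 0.05 there were 4 alpha and 4 beta genes, all higher, against 13.4% of all tested genes that were higher at this p. DESeq2 called 0 alpha and 1 beta gene, Pcdhb16, against 12.2% of all genes.

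Fold changes above 0 were more frequent among the members than in the whole table. The log2 fold change (AllPrep over TRIzol) was positive for 51 of 54 members, against 48.5% of all tested genes. It was positive for 45 of 54 without TRIzol replicate 1, and for 50 to 53 with any other library left out. With all 6 libraries its median was 0.50 over the members and -0.01 over all tested genes. In 25 members all 3 AllPrep libraries lay above all 3 TRIzol libraries, which held for 13.4% of all tested genes, and 0 members had all 3 below, against 20.6% of all tested genes. An unadjusted p below 0.05 was reached by 26 members, all higher, against 13.4% of all tested genes that were higher at this p.

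The median log2 fold change was 0.72 over the gamma B genes, 0.63 over gamma A, 0.54 over gamma C-type, 0.50 over alpha alternate, 0.45 over alpha C-type and 0.16 over beta genes. All 3 AllPrep libraries were above all 3 TRIzol libraries for 18 of 20 gamma genes, 3 of 10 alpha alternates, 0 of 2 alpha C-type genes and 4 of 22 beta genes. Over all tested genes this share was 13.4%, and the beta share, 18.2%, was near it. All 20 gamma genes had a positive fold change, and did so under every scaling, filter and left-out library that was run. The 3 negative fold changes were those of the beta genes Pcdhb3, Pcdhb5 and Pcdhb8, at -0.04, -0.08 and -0.11, all with overlapping libraries. Whether the clusters differ in their response was not tested.

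**Figure D3:**
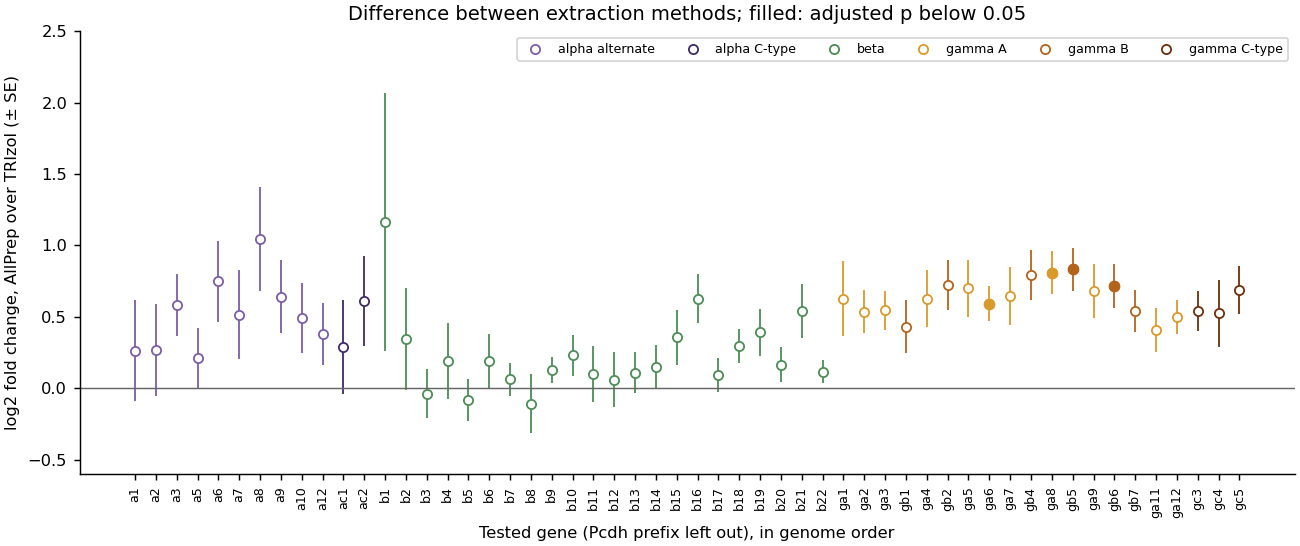
Log2 fold change (AllPrep over TRIzol, ± SE) of the 54 tested genes in genome order, coloured by group, with filled points for an adjusted p below 0.05. The 4 filled points are Pcdhga6, Pcdhga8, Pcdhgb5 and Pcdhgb6, the gamma genes lie between 0.41 and 0.83, and most beta genes lie near 0.

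The 4 called genes are gamma alternates, each with its own variable exon for the recognition part of the protein. Pcdhgb5 (ENSMUSG00000103749) had 6.43, 6.64 and 5.42 CPM in AllPrep replicates 1, 2 and 3, against 3.32, 3.97 and 3.33 CPM in TRIzol. The lowest AllPrep library lay above the highest TRIzol library. Pcdhgb5 rose 1.78-fold (log2 fold change 0.83, SE 0.15, 95% interval 0.48 to 1.17, edgeR adjusted p = 0.0351).

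Pcdhga8 (ENSMUSG00000103897) had 12.8, 12.8 and 14.6 CPM in AllPrep, against 6.40, 9.42 and 7.69 CPM in TRIzol. The groups did not overlap, and TRIzol replicate 1 was lowest. Pcdhga8 rose 1.75-fold (log2 fold change 0.81, SE 0.15, 95% interval 0.46 to 1.18, edgeR adjusted p = 0.0381).

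Pcdhga6 (ENSMUSG00000103793) had 18.6, 18.0 and 20.9 CPM in AllPrep, against 11.2, 14.6 and 13.3 CPM in TRIzol. It is the gamma A gene with the highest mean count level, and its groups did not overlap either. Pcdhga6 rose 1.51-fold (log2 fold change 0.59, SE 0.12, 95% interval 0.31 to 0.88, edgeR adjusted p = 0.0456).

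Pcdhgb6 (ENSMUSG00000103088) had 17.4, 19.5 and 16.3 CPM in AllPrep, against 8.63, 12.6 and 11.98 CPM in TRIzol. The groups were apart, with TRIzol replicate 1 again lowest. Pcdhgb6 rose 1.64-fold (log2 fold change 0.72, SE 0.15, 95% interval 0.37 to 1.09, edgeR adjusted p = 0.0497).

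These calls sit close to the threshold. Leaving out any 1 of the 6 libraries ended all 4, and without TRIzol replicate 3 a different gamma gene, Pcdhgc3, passed alone. Over all genes the share called was then 0.879%, 0.012% and 1.24% without TRIzol replicate 1, 2 or 3, and 0.0787%, 0.162% and 0.169% without AllPrep replicate 1, 2 or 3. Removing fitted length and GC trends also ended all 4 calls, with edgeR adjusted p between 0.0515 and 0.0674, and 1.66% of all genes were called. DESeq2 called 16 gamma genes and Pcdhb16, and 12.2% of all genes.

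Other gamma alternates had values of the same kind without passing the test. Pcdhga3 had 16.7, 16.8 and 20.1 CPM in AllPrep, against 10.4, 13.7 and 13.6 CPM in TRIzol, with no overlap (log2 fold change 0.55, edgeR adjusted p = 0.0651). Pcdhgb1 had 9.39, 9.29 and 8.40 CPM in AllPrep, against 4.89, 7.45 and 8.20 CPM in TRIzol. For Pcdhgb1 the groups nearly touched, and TRIzol replicate 1 was far below the other libraries (log2 fold change 0.43, edgeR adjusted p = 0.201).

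The gamma C-type genes were all higher in every AllPrep library than in any TRIzol library, yet none passed the threshold. Pcdhgc5 (ENSMUSG00000102543) had 107, 138 and 146 CPM in AllPrep, against 73.1, 102 and 73.7 CPM in TRIzol. AllPrep replicate 1 and TRIzol replicate 2 were the closest pair across the methods. The log2 fold change was 0.69 (SE 0.17, 95% interval 0.30 to 1.08, edgeR adjusted p = 0.0635).

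Pcdhgc3, which dampens Wnt signalling through Axin1 in cell assays, had 31.0, 28.7 and 30.4 CPM in AllPrep, against 18.6, 18.6 and 26.1 CPM in TRIzol. TRIzol replicate 3 was closest to the AllPrep libraries, and without it the gene was called. Its log2 fold change over all 6 libraries was 0.54 (SE 0.14, 95% interval 0.24 to 0.88, edgeR adjusted p = 0.0669).

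Pcdhgc4, the gamma gene needed for the survival of cortical interneurons in mice, had 25.7, 20.8 and 20.2 CPM in AllPrep, against 10.001, 20.1 and 17.4 CPM in TRIzol. AllPrep replicate 3 and TRIzol replicate 2 were nearly level, and TRIzol replicate 1 was far below. Its log2 fold change was 0.52 (SE 0.23, 95% interval 0.01 to 1.14, edgeR adjusted p = 0.208).

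The alpha C-type genes showed a wider spread in TRIzol. Pcdhac2 (ENSMUSG00000102697), needed in mice for the even spacing of serotonergic axons, had 41.1, 43.1 and 47.7 CPM in AllPrep, against 14.9, 42.3 and 31.2 CPM in TRIzol. The AllPrep libraries lay close together, while TRIzol replicate 1 was low and TRIzol replicate 2 lay among the AllPrep values. The log2 fold change was 0.61 (SE 0.32, 95% interval -0.04 to 1.502, edgeR adjusted p = 0.267). It was 0.30 without TRIzol replicate 1 and 0.96 without TRIzol replicate 2.

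Serotonergic neuron markers also set TRIzol replicate 2 apart. Their summed level was 28.4, 13.0 and 7.46 CPM in AllPrep, against 10.4, 158 and 10.6 CPM in TRIzol. Outside TRIzol replicate 2 most of this sum was Slc18a2. That gene had 27.0, 10.6 and 6.75 CPM in AllPrep, against 9.09, 70.2 and 9.78 CPM in TRIzol. Tph2, which makes serotonin in the brain, had 0.910, 1.87 and 0.628 CPM in AllPrep, against 1.26, 50.3 and 0.667 CPM in TRIzol. Every other library had a lower marker sum than TRIzol replicate 2. Of these, AllPrep replicates 2 and 3 had higher Pcdhac2 levels than TRIzol replicate 2. AllPrep replicate 1 and TRIzol replicates 1 and 3 had lower ones. The markers' part in the Pcdhac2 level was not tested.

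Pcdhac1 had 4.34, 4.85 and 4.14 CPM in AllPrep, against 1.87, 5.16 and 4.16 CPM in TRIzol. TRIzol replicate 2 was the highest of the 6 libraries and TRIzol replicate 1 the lowest. The log2 fold change was 0.29 (SE 0.33, 95% interval -0.40 to 1.20, edgeR adjusted p = 0.615), and without TRIzol replicate 1 it was -0.027. The ratio of Pcdhac2 to Pcdhac1 counts was 9.46, 8.88 and 11.5 in AllPrep, against 7.99, 8.20 and 7.50 in TRIzol, with no overlap. The gap is small and rests on few Pcdhac1 counts, 187 to 211 in AllPrep and 68 to 199 in TRIzol. The ratios of Pcdhgc5 to Pcdhgc3, Pcdhgc4 to Pcdhgc3 and Pcdhac2 to Pcdhgc5 overlapped between methods.

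Among alpha alternates the highest count levels were those of Pcdha12 and Pcdha9. Pcdha12 had 8.19, 8.33 and 10.1 CPM in AllPrep, against 5.41, 9.45 and 6.11 CPM in TRIzol (log2 fold change 0.38, edgeR adjusted p = 0.311). Pcdha9 had 9.07, 6.33 and 8.09 CPM in AllPrep, against 3.27, 6.67 and 5.49 CPM in TRIzol (log2 fold change 0.64, edgeR adjusted p = 0.169). For both, TRIzol replicate 2 lay within the AllPrep range.

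Pcdha8 had the smallest p among alpha genes and the lowest level per length of the tested alpha genes. It had 28, 22 and 51 counts in AllPrep, against 10, 18 and 16 counts in TRIzol, or 0.637, 0.571 and 1.00 CPM against 0.275, 0.467 and 0.356 CPM. The groups did not overlap, with a log2 fold change of 1.05 (SE 0.36, 95% interval 0.15 to 1.73, edgeR adjusted p = 0.129). So few counts limit the precision of the value.

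None of the beta genes passed the test, and the most abundant had fold changes near 0. Pcdhb17, the beta gene with the most counts, had 20.6, 19.9 and 21.6 CPM in AllPrep, against 22.0, 16.8 and 20.9 CPM in TRIzol. The groups overlapped (log2 fold change 0.09, 95% interval -0.18 to 0.38, edgeR adjusted p = 0.654), and without TRIzol replicate 2 the value was -0.022. Pcdhb9 had 18.8, 19.2 and 19.3 CPM in AllPrep, against 16.5, 17.8 and 19.4 CPM in TRIzol (log2 fold change 0.13, 95% interval -0.08 to 0.34, edgeR adjusted p = 0.407).

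Pcdhb16 had 13.0, 12.9 and 13.1 CPM in AllPrep, against 6.37, 8.90 and 10.6 CPM in TRIzol. The 3 AllPrep libraries agreed closely, and all lay above the TRIzol libraries, which spread widely. The log2 fold change was 0.63 (SE 0.17, 95% interval 0.25 to 1.07, edgeR adjusted p = 0.0784). The largest beta fold change, 1.16 for Pcdhb1, came from the lowest beta gene, with overlapping libraries (edgeR adjusted p = 0.455).

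Summed by cluster, the ratio of the AllPrep mean to the TRIzol mean was 1.51 for gamma, 1.41 for alpha and 1.11 for beta genes. The gamma cluster summed to 363, 396 and 409 CPM in AllPrep, against 214, 299 and 262 CPM in TRIzol, with no overlap. The beta cluster summed to 197, 193 and 194 CPM in AllPrep, against 161, 178 and 189 CPM in TRIzol, also without overlap but with a gap that is small beside the spread in TRIzol. The alpha cluster summed to 90.9, 91.3 and 101 CPM in AllPrep, against 39.9, 92.4 and 69.3 CPM in TRIzol, and TRIzol replicate 2 lay within the AllPrep range.

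**Figure D4:**
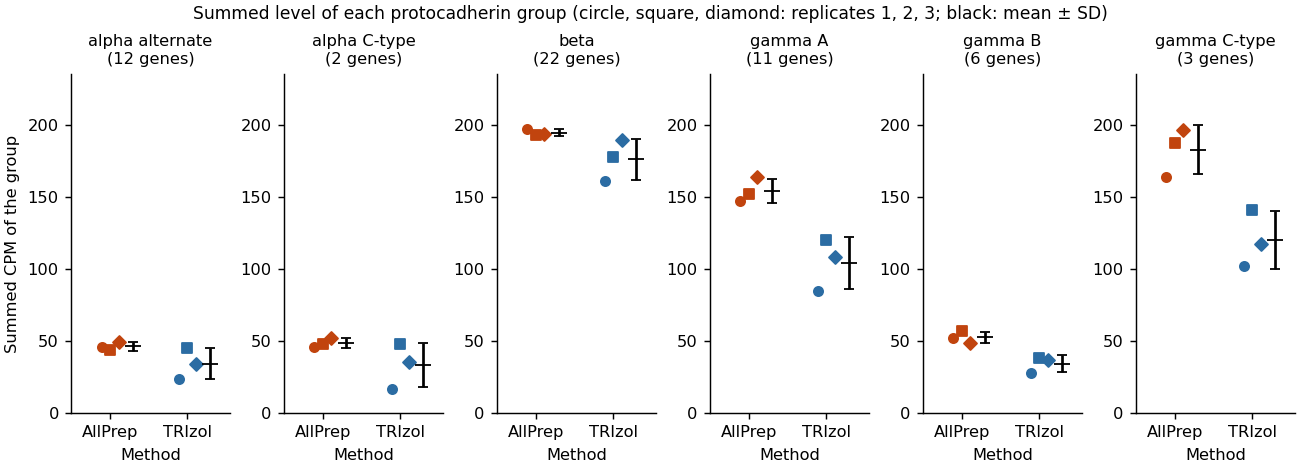
Summed CPM of the genes of each group in each library, AllPrep left of TRIzol, with circle, square and diamond for replicates 1, 2 and 3 and black bars for the mean ± SD (n = 3 each). The gamma A sums averaged 154 CPM in AllPrep and 104 CPM in TRIzol, and the beta sums 195 CPM in AllPrep and 176 CPM in TRIzol.

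Gamma genes made up 57.3 ± 1.41% of protocadherin counts in AllPrep and 51.5 ± 1.13% in TRIzol, beta genes 28.7 ± 1.44% in AllPrep and 35.5 ± 3.90% in TRIzol, and alpha genes 13.9 ± 0.475% in AllPrep and 13.1 ± 3.31% in TRIzol (SD, n = 3 each). The gamma share was higher and the beta share lower in every AllPrep library than in any TRIzol library, and the alpha share overlapped. The summed gamma A and B counts over the beta counts gave a ratio of 1.01, 1.08 and 1.10 in AllPrep, against 0.695, 0.890 and 0.764 in TRIzol. These ratios did not overlap, whereas alpha alternate over beta did, at 0.230, 0.225 and 0.255 in AllPrep, against 0.144, 0.253 and 0.179 in TRIzol. Within the gamma cluster, C-type over alternate counts also overlapped, at 0.821, 0.900 and 0.925 in AllPrep, against 0.910, 0.893 and 0.811 in TRIzol.

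The low values in TRIzol replicate 1 were spread unevenly over the groups. Its level over the mean of TRIzol replicates 2 and 3 had a median of 0.403 for alpha C-type, 0.583 for alpha alternate, 0.720 for gamma B, 0.727 for gamma A, 0.830 for gamma C-type and 0.887 for beta genes, against 0.991 for all tested genes. Without TRIzol replicate 1 the median log2 fold change of the members was 0.31 and none was called. It was then 0.58 for gamma B, 0.48 for gamma A, 0.46 for gamma C-type, 0.28 for alpha alternate, 0.14 for alpha C-type and 0.09 for beta genes. The cell type marker lists went both ways in the same library. The median log2 deviation of the 6 meningeal fibroblast markers was -1.22 in TRIzol replicate 1, 0.17 in TRIzol replicate 2 and 0.07 in TRIzol replicate 3, and that of the 4 oligodendrocyte precursor markers was -0.38, -0.14 and -0.10 in the same order. The astrocyte and cerebellar medians were also lowest in TRIzol replicate 1 among the TRIzol libraries. Going the other way, the striatal median was 0.61, -0.39 and -1.83 and the ependymal median -0.10, -1.49 and -1.53 in TRIzol replicates 1, 2 and 3. The hypothalamic, neuronal and microglial medians were also highest in TRIzol replicate 1, and the other marker lists lay in between. The part of these cells in the protocadherin values was not tested.

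Among the alternate and beta genes, alpha alternates varied most between libraries of a method. Their median SD on the log2 scale was 0.22 in AllPrep and 0.50 in TRIzol, against 0.10 in AllPrep and 0.30 in TRIzol for beta genes and 0.13 in AllPrep and 0.28 in TRIzol for gamma alternates. All tested genes had 0.13 in AllPrep and 0.16 in TRIzol.

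**Figure D5:**
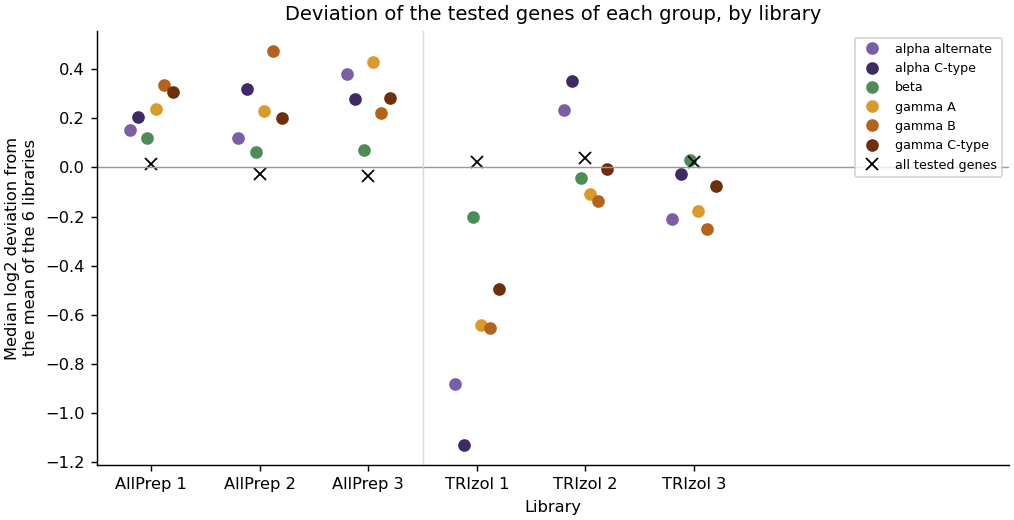
Median log2 deviation of the tested genes of each group from their mean over the 6 libraries, by library, with AllPrep left of TRIzol and crosses for all tested genes. In TRIzol replicate 1 alpha C-type genes lie at -1.13, alpha alternates at -0.88 and beta genes at -0.20, while the cross lies near 0.

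The median GC content of the transcripts was 54.4% for gamma C-type, 52.8% for gamma alternate, 47.3% for alpha alternate and 46.0% for beta genes. Across all 54 tested members, log2 fold change against GC had Pearson's r of 0.49 and Spearman's rho of 0.54. Within a group r was -0.06 over the 10 alpha alternates, -0.07 over the 22 beta genes and 0.01 over the 17 gamma alternates. GC spanned 39.1% to 49.0% in the beta genes. It spanned only 47.0% to 48.0% in the alpha alternates and 51.004% to 53.8% in the gamma alternates. With so narrow a span, r in these 2 groups cannot show whether fold change follows GC. With length and GC trends removed the medians were 0.66 for gamma B, 0.57 for gamma A, 0.48 for gamma C-type, 0.43 for alpha alternate and 0.17 for beta genes. Whether base composition has a part in the difference between clusters was not tested further.

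The delta protocadherins, which lie outside the clusters and have longer cytoplasmic tails of their own, had a median log2 fold change of 0.57, and 1 of 10 was called, higher (5 by DESeq2). Over all tested genes edgeR called 3.8% and DESeq2 12.2%. The gene called by edgeR was Pcdh17, an adhesion protein of growing axons and of synapses. It had 140, 111 and 158 CPM in AllPrep, against 73.3, 71.7 and 76.9 CPM in TRIzol, with no overlap (log2 fold change 0.92, SE 0.13, edgeR adjusted p = 0.0241). Pcdh1, the most abundant, averaged 278 ± 61.0 CPM in AllPrep and 191 ± 24.1 CPM in TRIzol (SD, n = 3 each; edgeR adjusted p = 0.0866).

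Of 12 other large cadherins 2 were called, both higher (5 by DESeq2), with a median log2 fold change of 0.53. All tested genes gave 3.8% by edgeR and 12.2% by DESeq2. Fat3, which shapes dendrites of retinal amacrine cells in mice, had 140, 136 and 117 CPM in AllPrep, against 89.6, 91.0 and 79.7 CPM in TRIzol (log2 fold change 0.63, edgeR adjusted p = 0.0261). Dchs2, of the Dachsous family of Fat ligands, had 12.2, 6.10 and 10.1 CPM in AllPrep, against 2.36, 2.83 and 2.02 CPM in TRIzol (log2 fold change 2.01, edgeR adjusted p = 0.0227). Neither gene overlapped between methods. The most abundant, Celsr2, averaged 337 ± 48.6 CPM in AllPrep and 240 ± 34.9 CPM in TRIzol (SD, n = 3 each; edgeR adjusted p = 0.0716). None of the 4 immunoglobulin proteins of neuronal self-recognition was called (1 by DESeq2). Their median log2 fold change was 0.24, with all 4 above 0. Dscam, the most abundant, had 0.07 (edgeR adjusted p = 0.723), and Dscaml1 had 0.54 (edgeR adjusted p = 0.0756).

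Genes that act on protocadherin promoters had a median log2 fold change of 0.03, and 2 of 15 were called, both higher (2 by DESeq2). Over all genes the shares were 3.8% by edgeR and 12.2% by DESeq2, so the DESeq2 count was near the share over all genes. Nipbl, which loads cohesin and without which protocadherin expression drops in mice, had 69.5, 65.8 and 72.0 CPM in AllPrep, against 51.1, 49.7 and 55.5 CPM in TRIzol (log2 fold change 0.44, edgeR adjusted p = 0.0322). Its lowest AllPrep library lay above its highest TRIzol library. Ctcf, the DNA-binding protein that brings promoter and enhancer together, had a log2 fold change of 0.05 (edgeR adjusted p = 0.788).

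Among 12 genes of signalling inside the cell, the median log2 fold change was 0.24. DESeq2 called 5 of these genes, against 12.2% of all genes. By edgeR, which called 3.8% of all genes, the kinase gene Ptk2b alone was called. Its product Pyk2 binds the shared cytoplasmic domains of alpha and gamma proteins and is held inactive by them. Ptk2b had 458, 566 and 631 CPM in AllPrep, against 387, 332 and 364 CPM in TRIzol, with no overlap (log2 fold change 0.65, edgeR adjusted p = 0.0456). Cyfip2, of the WAVE complex that alpha proteins recruit, was the most abundant and averaged 1214 ± 72.0 CPM in AllPrep and 1010 ± 66.3 CPM in TRIzol (SD, n = 3 each; edgeR adjusted p = 0.0941).

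Of 10 genes for the cleavage of protocadherins and for neuroligins none was called by edgeR and 1 by DESeq2, with a median log2 fold change of 0.05. The shares over all genes were 3.8% by edgeR and 12.2% by DESeq2, so the DESeq2 count was near the share over all genes. Nlgn2, a neuroligin of inhibitory synapses and the most abundant of the list, averaged 279 ± 17.6 CPM in AllPrep and 246 ± 13.8 CPM in TRIzol (SD, n = 3 each; edgeR adjusted p = 0.161). Like the protocadherin calls, those in these lists changed when libraries were left out: without TRIzol replicate 2, or without AllPrep replicate 1 or 3, none of Pcdh17, Dchs2, Fat3, Nipbl and Ptk2b was called. With length and GC trends removed, 1 delta protocadherin, 1 other large cadherin, 0 promoter genes and 0 signalling genes were called. With no filter on low counts, 3 delta protocadherins, 3 other large cadherins and 3 signalling genes were called.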

How the data were processed

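RNA from AllPrep (3) and TRIzol (3) libraries was compared; samples were grouped by their labels. The authors deposited raw counts per gene. Per the submitters' processing notes, reads were handled with STAR 2.7.9a and featureCounts on build GRCm39, and cutadapt, limma 3.60.6 and FastQC 0.11.9 were also used. No source used here gives the settings, so strand and the handling of reads in shared exons are unknown. Of 22692 rows, 108 repeats of an ID were removed, none of a protocadherin. Of counts from 1 to 20, 64.2% to 70.9% were even, so counts were also halved.

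The test was edgeR's quasi-likelihood F-test (version 4.0.16, R 4.3.3; low counts removed by filterByExpr, TMM scaling, two-sided, Benjamini-Hochberg over all 16325 tested genes, threshold 0.05). The SE is the log2 fold change divided by the square root of F. Intervals (95%) came from limma 3.58.1 (limma-trend, prior count 2), and DESeq2 1.42.0 was an alternative. Exon lengths, GC and shared windows came from GENCODE vM21 on GRCm38, matched by Ensembl ID for all 56 members; the ID named Pcdha10 in the table has another alpha name there. No coordinates are given, since that build differs from the authors'. Intervals cover the spread between libraries, and libraries of the same method always differed by more than sampling noise (lowest chi-square per degree of freedom 14.3).

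The members, the 19 gene and marker lists and the naming rule were chosen with earlier results of these data known. The rule named the 5 C-type genes, in each other group the 2 with the most counts and the 1 with the smallest p, and every member past the threshold. In each further gene list it named those past the threshold, at most 3, and the most abundant; 1 gene that the rule named is not reported here. Pcdha4, Pcdha11, Pcdhb1, Pcdhb3, Pcdhb5, Pcdhb8, Pcdhb12, Pcdhga11, Tph2, Ctcf and Dscaml1 were named outside the rule, after their values were seen. Slc18a2, the most abundant serotonergic marker, was also named after its values were seen. The marker lists of astrocytes, striatum, cerebellum, oligodendrocytes, oligodendrocyte precursors, microglia, endothelium and meningeal fibroblasts had 1 gene called in astrocytes and 1 in cerebellum, both higher, and 0 in the others; serotonergic markers had 0 called.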

Additional observations from a re-analysis of the deposited data

How the results depend on the processing

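The count of 4 protocadherins past the threshold was 2 with library size alone as scaling (Pcdhga8 and Pcdhgb5), 0 with length and GC trends removed (24 at an unadjusted p below 0.05), 17 with DESeq2, and 0 to 1 with 1 library left out (17 to 28 at an unadjusted p below 0.05). It was 4 to 6, with the same 4 genes among them, under DESeq2 size factors, other filters and halved counts. Over all genes the count was 621 (412 higher, 209 lower), against 270 (139 higher, 131 lower) with those trends removed, 2001 with DESeq2 and 2 to 205 with 1 library left out; library size alone gave 343 higher and 305 lower. Deviations of same-numbered libraries had correlations of -0.05, 0.01 and 0.16, against -0.17 to 0.20 for differently numbered ones. With 3 libraries a method, these values cannot tell whether the numbers mark shared animals or batches. With the replicate number as a block 0 members (25 at an unadjusted p below 0.05) and 236 genes were called. The median log2 fold change of the members lay between 0.31 (without TRIzol replicate 1) and 0.60. With 1 library left out Pcdhac1 ranged between -0.027 (without TRIzol replicate 1) and 0.58, and Pcdhb17 between -0.022 (without TRIzol replicate 2) and 0.18. With the longest transcript as length the CPM per kilobase was 0.66 for alpha alternate, 3.49 for alpha C-type, 2.38 for gamma A, 1.23 for gamma B and 5.46 for gamma C-type genes. With bases unshared on the same strand, chosen after seeing the data, it was 7.57 for gamma C-type genes. Causes were not tested. For the 17 named members, 195 of 237 alternative values kept their direction and side of the threshold, 34 of called genes lost the call, 6 of genes not called gained one, and 2 changed sign. Depth limits Pcdha8 and Pcdhb1, and Pcdha4 and Pcdha11 could not be tested.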
